A study of Mus musculus and Meriones unguiculatus with 4 samples.

Results

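The 8 genes described here encode secreted ligands or ligand subunits of the TGF-beta superfamily and secreted proteins of the follistatin family. The genes are the activin subunit genes Inhba and Inhbb, the TGF-beta ligand genes Tgfb1, Tgfb2 and Tgfb3, and the follistatin family genes Fst, Fstl1 and Fstl3. They were taken by symbol from the tables of both species, and all 8 were found once in each, among 13325 genes matched between the species. All 8 also had an annotated length and passed the filter on low values, which together left 10162 measured genes. The samples are RNA of the enamel knot region, cut by laser microdissection from sections of fixed mandibular tooth germs of embryos, wild-type mice at embryonic day 13 and wild-type gerbils at embryonic day 15, with 2 libraries per species and no treatment. The column names set the mouse libraries apart as PEK and SEK and the gerbil libraries as E21 and E23. The labels do not explain these endings, E21 and E23 differ from the labelled embryonic day 15, and the number of animals per library is not stated. Should the endings mark separate stages or regions, then a species has 1 library of each and no replicates, and otherwise their spread may be technical.

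Activins are dimers of the inhibin beta subunits and signal through serine/threonine kinase receptors to Smad2 and Smad3, as TGF-beta ligands do through receptors of their own. Follistatin, the product of Fst, and the related Fstl3 protein bind activin outside the cell and keep it from its receptors, whereas TGF-beta ligands are secreted in a latent form that must be activated. In the developing tooth, activin A is known as a mesenchymal signal needed for several tooth types, and follistatin is known as a modulator of activin and BMP signalling in the dental epithelium, where the enamel knot acts as a signalling centre.

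The tables hold FPKM for mouse and TPM for gerbil, both values per length. Values were scaled so that the matched genes of a library sum to 1000000, and this scaled value is called the level. Differences between libraries are on the log2(level + 1) scale after a trend along transcript length was removed from each library, because the gerbil to mouse ratio moved with length, with median log2 differences of -1.80 for the decile of shortest genes and 1.43 for that of the longest. Differences understate the change of low genes. To be called higher in mouse or in gerbil, a gene had to exceed by at least 2-fold, on this corrected scale and in each of that species' libraries, the larger value of the other species. No significance test was run, since the tables were normalized separately and 2 against 2 libraries cannot give an exact two-sided permutation p below 0.333.

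The labels call the samples epithelial cells. The 10 listed dental epithelium markers summed to levels of 5542 and 7785 in mouse PEK and SEK and 9760 and 8467 in gerbil E21 and E23. Krt5 alone stood at 1624 and 2378 in mouse and 6042 and 4586 in gerbil, and Krt14 at 1739 and 2843 in mouse and 1030 and 1373 in gerbil. On the corrected scale 5 of the 9 measured epithelium markers lay on the gerbil side and 4 on the mouse side. The higher gerbil sums thus do not show the direction of single epithelium markers. The 14 listed dental mesenchyme markers summed to 1339 and 1536 in mouse and 2402 and 3461 in gerbil, and no marker of either list stood at 0 in any library. Vim had the highest mean level of the mesenchyme list over the 4 libraries, but Barx1 led in SEK (540) and Col3a1 in E23 (888). The mesenchyme sums do not show the direction of single markers. On the corrected scale 8 of the 14 mesenchyme markers lay on the mouse side and 6 on the gerbil side. Of the 14, 2 were called higher in mouse (Msx1 and Barx1) and 1 in gerbil (Alcam), with a median difference of -0.26. Mesenchymal transcripts were therefore present in all 4 libraries, and their part in the results was not tested. The 10 enamel knot markers summed to 4966 and 2862 in mouse and 1885 and 1820 in gerbil, with 3 called higher in mouse and 0 in gerbil. Over all measured genes, 14.7% were called higher in mouse and 13.3% in gerbil. Cdkn1a alone stood at 1565 and 1019 in mouse and 60.0 and 37.1 in gerbil, whereas Shh, with the highest mean level, differed by 0.025. On the corrected scale 8 of the 10 lay on the mouse side and 2 on the gerbil side. The skeletal muscle list summed to 167 and 662 in mouse and 40.9 and 64.2 in gerbil, with 3 of 8 measured markers called higher in mouse. The bone and cartilage list summed to 118 and 371 in mouse and 808 and 610 in gerbil. Alpl had its highest mean level over the 4 libraries, but Ibsp was higher than Alpl in mouse SEK (150 against 105). On the corrected scale 3 of its 5 measured markers lay on the mouse side and 2 on the gerbil side, with a median difference of -0.44. The part of these cells in the differences between species was not tested. In such bulk samples, fewer cells of a type and less RNA per cell cannot be told apart.

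Of the ligand genes, Tgfb1, Tgfb2 and Inhba were called higher in 1 species, and their mouse promoters are shown for that reason. Each line gives the 250 bases before the RefSeq start site in GRCm38.p6, 5′ to 3′ on the gene's strand, with exact matches to searched motifs in capitals.
Tgfb1, chr7:25686752-25687001, plus strand: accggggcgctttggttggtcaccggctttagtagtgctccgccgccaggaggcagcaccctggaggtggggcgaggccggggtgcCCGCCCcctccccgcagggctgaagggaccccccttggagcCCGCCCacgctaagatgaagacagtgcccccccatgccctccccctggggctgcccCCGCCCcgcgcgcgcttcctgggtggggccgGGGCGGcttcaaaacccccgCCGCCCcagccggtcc
Tgfb2, chr1:186705990-186706239, minus strand: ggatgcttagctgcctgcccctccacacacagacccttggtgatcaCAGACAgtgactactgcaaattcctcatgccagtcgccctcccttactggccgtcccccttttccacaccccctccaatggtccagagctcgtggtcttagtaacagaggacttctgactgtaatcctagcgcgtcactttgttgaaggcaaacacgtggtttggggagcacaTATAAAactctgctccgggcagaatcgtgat
Inhba, chr13:16011601-16011850, plus strand: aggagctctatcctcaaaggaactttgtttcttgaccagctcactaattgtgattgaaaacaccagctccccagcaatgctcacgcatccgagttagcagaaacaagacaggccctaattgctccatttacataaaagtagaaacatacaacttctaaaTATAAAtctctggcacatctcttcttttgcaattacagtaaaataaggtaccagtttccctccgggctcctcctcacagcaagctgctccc

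The motifs searched on both strands were the TATA box TATAAA, the GC box GGGCGG, the Smad-binding CAGA box CAGACA, the Smad palindrome GTCTAGAC and the AP-1 site TGACTCA. The Tgfb1 promoter was 75.2% G and C, held 5 GC boxes and had no match to TATAAA. By contrast, the Tgfb2 promoter was 53.6% G and C, with a TATAAA match starting 31 bases before the start site, a CAGA box match starting 204 bases before it and no GC box. In the Inhba promoter, at 43.2% G and C, the only match was a TATAAA starting 91 bases before the start site. Of 32851 windows of this length in the RefSeq table, 12.4% held TATAAA, 32.7% the GC box and 17.1% the CAGA box on either strand. The Smad palindrome was in 0.167% of windows and the AP-1 site in 4.46%, and neither was in these 3 promoters. RefSeq promoters were matched for 6 of the 8 genes, with Fst and Tgfb3 unmatched. The gerbil promoters were not analysed here, and a match is a description of letters in the mouse window.

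On levels without the length correction, Tgfb1 was the most abundant TGF-beta ligand gene in both mouse libraries and Tgfb2 in both gerbil libraries. On the corrected scale Tgfb2 lay slightly above Tgfb1 in mouse SEK too (6.31 against 6.13). Tgfb1, which encodes the TGF-beta 1 ligand, was at 44.6 and 35.4 FPKM in mouse PEK and SEK and at 0.65 and 0.83 TPM in gerbil E21 and E23. On the common scale its levels were 101 and 72.6 in mouse and 4.90 and 7.05 in gerbil. Both mouse libraries stood far above both gerbil libraries. The corrected log2 difference, gerbil minus mouse, was -3.60 ± 0.38 (SE, n = 2 per species), a 12.1-fold difference, and the nearest mouse and gerbil libraries were still 8.31-fold apart. Within its own library, Tgfb1 ranked at the 81.4 and 75.4 percentile of the measured genes in mouse and at the 15.6 and 17.9 percentile in gerbil. Only 3.01% of measured genes had a larger absolute difference between the species.

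Tgfb2, which encodes the TGF-beta 2 ligand, went the other way. It was at 26.6 and 18.3 FPKM in mouse PEK and SEK and at 61.0 and 37.0 TPM in gerbil E21 and E23. Its levels were 60.5 and 37.5 in mouse and 460 and 314 in gerbil, so the groups did not overlap. The corrected difference was 1.47 ± 0.26, a 2.78-fold difference. It was called higher in gerbil, but removing a GC trend as well ended the call (1.21), and 27.5% of measured genes had a larger absolute difference. Tgfb2 ranked at the 97.6 and 95.7 percentile in gerbil and at the 70.3 and 62.3 percentile in mouse.

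Tgfb3, the third ligand gene, did not separate the species by the criterion. Its levels were 6.71 and 12.5 in mouse PEK and SEK and 23.4 and 28.6 in gerbil E21 and E23. The gerbil levels were the higher ones, yet on the corrected scale the lower gerbil library (4.18) lay below the higher mouse library (4.21). The corrected difference was 0.72 ± 0.58, and it was called higher in gerbil only when mouse SEK was left out (1.25). The mouse gene overlaps Ttll5 on the opposite strand, and no source used here says whether counting used strand, so reads of the overlap cannot be assigned with certainty.

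**Figure D1:**
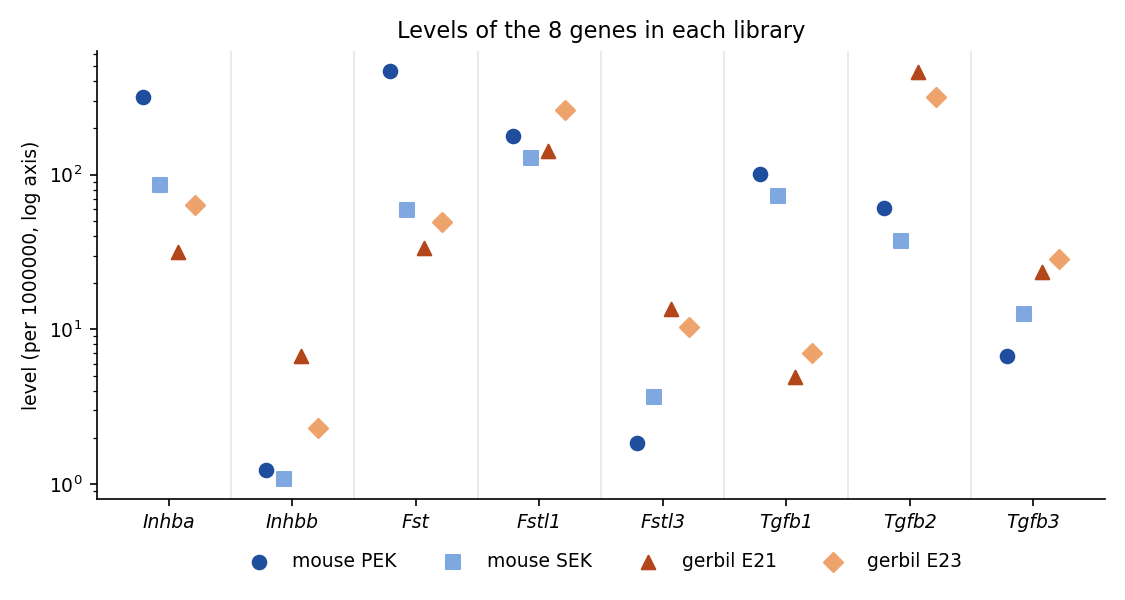
Levels of the 8 genes in the 4 libraries, rescaled to 1000000 over the matched genes, on a log axis. Tgfb1 stood at 72.6 and 101 in mouse against 4.90 and 7.05 in gerbil, while Tgfb2 stood at 37.5 and 60.5 in mouse against 314 and 460 in gerbil.

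The ratio of Tgfb1 to Tgfb2 within a library does not depend on how the libraries were rescaled. It was 1.68 and 1.94 in mouse PEK and SEK and 0.0107 and 0.0224 in gerbil E21 and E23. Tgfb1 exceeded Tgfb2 in both mouse libraries, and Tgfb2 exceeded Tgfb1 in both gerbil libraries. With the length trend removed, the log2 ratio was 0.34 and -0.17 in mouse and -5.50 and -4.48 in gerbil, a difference of -5.07 ± 0.57 (SE, n = 2 per species), against -6.86 on the uncorrected levels. On that corrected scale Tgfb1 and Tgfb2 were about equal in mouse, and the order in SEK turned.

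Of the summed level of the 3 ligand genes, Tgfb1 made up 60.1% and 59.2% in mouse PEK and SEK and 1.00% and 2.01% in gerbil E21 and E23. Tgfb2 made up 35.9% and 30.6% in mouse and 94.2% and 89.8% in gerbil. The share of Tgfb3 overlapped between the species, at 3.98% and 10.2% in mouse and 4.80% and 8.18% in gerbil. The summed level itself was 169 and 123 in mouse and 488 and 350 in gerbil, before any length correction.

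**Figure D2:**
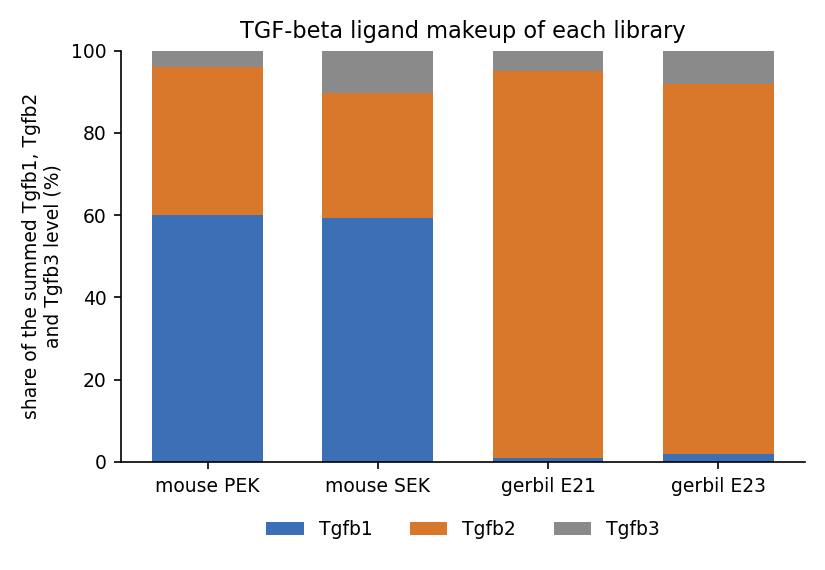
Share of each TGF-beta ligand gene in the summed level of Tgfb1, Tgfb2 and Tgfb3, in percent, for each library and without length correction. Tgfb1 made up 59.2% and 60.1% in the mouse libraries, and Tgfb2 made up 89.8% and 94.2% in the gerbil libraries.

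Among the activin subunits, Inhba was the predominant gene in all 4 libraries and was more abundant in mouse. Inhba encodes the beta A subunit, whose homodimer is activin A. It was at 139 and 41.6 FPKM in mouse PEK and SEK and at 4.18 and 7.45 TPM in gerbil E21 and E23, and its levels were 316 and 85.2 in mouse and 31.5 and 63.3 in gerbil. The levels did not overlap, although mouse SEK and gerbil E23 lay close together. The corrected log2 difference was -3.72 ± 0.79 (SE, n = 2 per species), and Inhba was called higher in mouse.

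This size rests on the transcript length given to Inhba. The annotated exons of mouse Inhba in GENCODE M21 cover 6390 bases, but its locus in the mouse table, positions 16011851 to 16027211 of chromosome 13 in GRCm38, ends 4410 bases before the annotated 3′ end and holds 1980 exonic bases. Counting length only within the locus, an alternative chosen after seeing the data, gave a difference of -1.69, and the call ended. The difference was -2.49 and called without the length correction, and -1.85 and not called with neither correction nor centring. Its sign was negative in all of these. For the other 7 genes the length within the locus was equal to the annotated one or, for Fst, 2831 against 2833 bases, and their calls were the same. The gerbil Inhba model is also short, spanning 10578 bases with 1 transcript against 19771 bases annotated in mouse, and the part of the gene models in the difference was not tested. An antisense gene and a pseudogene overlap Inhba on the opposite strand.

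Inhbb, which encodes the beta B subunit, was low in every library. Its levels were 1.24 and 1.09 in mouse PEK and SEK and 6.78 and 2.29 in gerbil E21 and E23. The gerbil levels were above the mouse levels, but the corrected values overlapped and the difference was 0.05 ± 0.63. Inhbb made up 0.391% and 1.26% of the summed subunit level in mouse and 17.7% and 3.50% in gerbil.

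**Figure D3:**
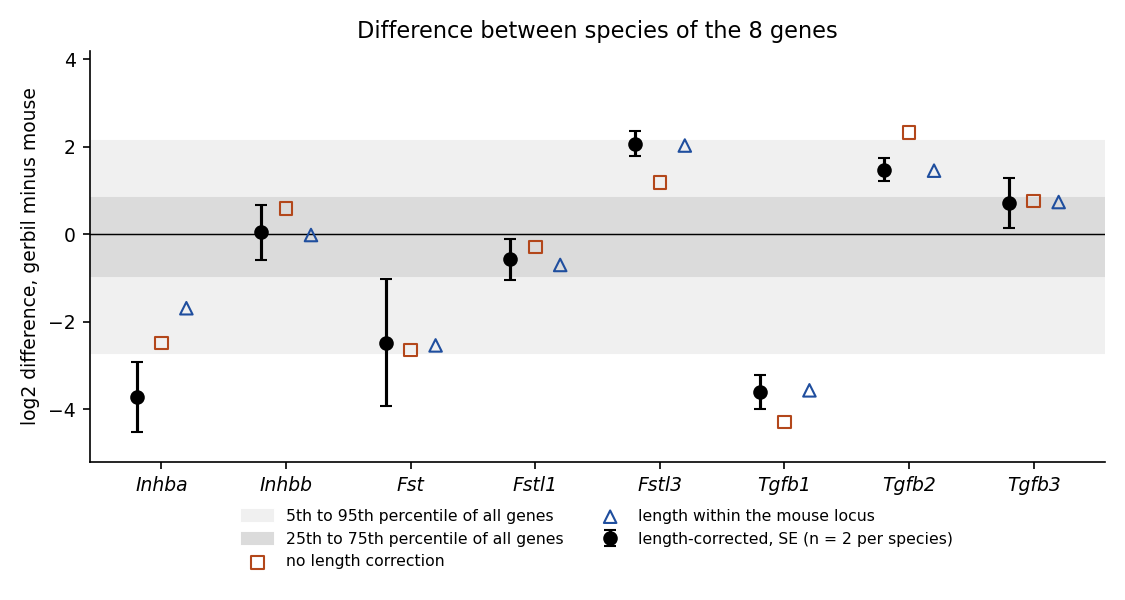
Log2 difference between species, gerbil minus mouse, of the 8 genes with the length correction (filled circles, SE, n = 2 per species), without it (squares) and with length counted within the mouse locus (triangles), over the spread of all 10162 measured genes. The Tgfb1 values run from -4.29 to -3.56, whereas those of Inhba run from -3.72 to -1.69.

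Fst, the gene of follistatin, was high in 1 mouse library and stood much closer to the gerbil levels in the other. It was at 205 and 28.9 FPKM in mouse PEK and SEK and at 4.42 and 5.84 TPM in gerbil E21 and E23, with levels of 465 and 59.2 in mouse and 33.3 and 49.6 in gerbil. The lower mouse library lay just above the higher gerbil library. The corrected difference was -2.48 ± 1.45 and was not called. It was -3.90 and called without mouse SEK, and -1.05 and not called without mouse PEK. The call was also made without gerbil E23 (-2.78) and with a GC trend removed as well (-2.83).

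Fstl3, the gene of a second activin-binding protein, was low and on the gerbil side. Its levels were 1.86 and 3.68 in mouse PEK and SEK and 13.6 and 10.4 in gerbil E21 and E23, with no overlap. The corrected difference was 2.08 ± 0.29, called higher in gerbil, and without the length correction it was 1.18 and not called. Mouse Fstl3 shares 1157 bases with Prss57 on the opposite strand, which stood at 1.62 and 2.28 FPKM against 0.816 and 1.80 FPKM for Fstl3 itself, so the mouse values are uncertain.

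Fstl1, which encodes a secreted glycoprotein with a follistatin-like domain, was among the more abundant of the 8 genes in every library and similar in both species. Its levels were 178 and 127 in mouse PEK and SEK and 142 and 261 in gerbil E21 and E23, and the groups overlapped. The corrected difference was -0.57 ± 0.46, and it was 0.35 with neither correction nor centring, where the median of all genes shifted by 0.62.

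Within a library, the balance of follistatin to activin transcripts did not separate the species on plain levels. The Fst to Inhba ratio was 1.47 and 0.695 in mouse PEK and SEK and 1.06 and 0.784 in gerbil E21 and E23. With the length trend removed, the log2 ratio was 0.15 and -1.46 in mouse and 0.78 and 0.39 in gerbil, where the gerbil values were the higher ones by 1.24 ± 0.83, but this again uses the annotated Inhba length. The makeup of the activin-binding pair differed between species. Fstl3 made up 0.398% and 5.85% of the summed Fst and Fstl3 level in mouse PEK and SEK and 29.1% and 17.3% in gerbil E21 and E23. The Fstl3 to Fst log2 ratio differed by 4.55 ± 1.71 with the length correction and by 4.21 without it.

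In mouse the order of mean levels was Fst at 262 ± 287 (SD, n = 2), Inhba at 201 ± 163, Fstl1 at 153 ± 36.0, Tgfb1 at 87.0 ± 20.3 and Tgfb2 at 49.0 ± 16.3, and then Tgfb3, Fstl3 and Inhbb at under 10. The ranges of Fst, Inhba and Fstl1 overlapped with their neighbours in that order, and from Fstl1 to Tgfb1 downward neighbouring ranges were apart. In gerbil the order was Tgfb2 at 387 ± 103, Fstl1 at 201 ± 84.1, Inhba at 47.4 ± 22.5, Fst at 41.5 ± 11.5 and Tgfb3 at 26.0 ± 3.67, and then Fstl3, Tgfb1 and Inhbb. There Inhba and Fst overlapped, as did Tgfb1 at 5.98 ± 1.52 and Inhbb at 4.54 ± 3.18. Inhbb was the lowest of the 8 in both species, and Tgfb1 moved from the fourth place in mouse to the seventh in gerbil.

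By the criterion, 2 of the 8 genes were higher in gerbil (Tgfb2 and Fstl3) and 2 were higher in mouse (Tgfb1 and Inhba). Of all measured genes, 13.3% were called higher in gerbil and 14.7% higher in mouse (28.0% in either direction), and with 8 genes a count of 2 each way is close to that background. The directions were less even over all genes with neither correction nor centring, at 3021 higher in gerbil and 1209 in mouse, against 1353 and 1490. The median corrected difference of the 8 was -0.26, against -0.02 over all measured genes. The count of 2 higher in gerbil became 1 without the length correction (a scale on which 18.4% of all genes passed for gerbil and 19.4% for mouse), 1 with GC also removed and 1 with a minimum level of 10 in each species. That of 2 higher in mouse became 1 with length counted within the locus, 1 with neither correction nor centring and 1 with the minimum of 10. The minimum leaves out Fstl3 and Tgfb1, so their calls were not made there.

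Between the mouse libraries, Fst showed the widest gap of the 8 genes. Its corrected level in SEK was 2.84 lower on the log2 scale than in PEK (a difference of -2.84, and -2.76 without the length correction), and 0.92% of measured genes had a larger absolute difference. Inhba differed in the same direction (-1.23), and Tgfb3 in the other (1.07, and 0.98 with length counted within the locus). The remaining genes lay within 2-fold, from -0.58 for Tgfb1 to 0.44 for Fstl3. Among all measured genes, 8.39% were at least 2-fold higher in PEK and 7.43% at least 2-fold higher in SEK. With 1 library of each name there is no replicate check. Summed marker levels also differed: from PEK to SEK the enamel knot list went from 4966 to 2862 and the skeletal muscle list from 167 to 662. The bone and cartilage list went from 118 to 371, the endothelium list from 115 to 219 and the dental epithelium list from 5542 to 7785. Egfl7, which had no annotated length, held 106 and 189 of the endothelium sums. On the corrected scale all 10 enamel knot markers were lower in SEK, and all 6 measured endothelium markers were higher. Higher in SEK were also 7 of 8 measured muscle markers, 4 of 5 for bone and cartilage and 7 of 9 for epithelium. The part of these cells in the Fst and Inhba values was not tested.

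Between the gerbil libraries, Inhba and Inhbb reached a 2-fold difference. Inhba was higher in E23 by 1.00 on the corrected log2 scale, at the 2-fold limit, and Inhbb was lower (-1.20) at levels of 6.78 and 2.29. Fstl1 was higher in E23 by 0.91, Fst by 0.61, Tgfb1 by 0.50 and Tgfb3 by 0.44, and Tgfb2 (-0.52) and Fstl3 (-0.37) were lower. Of all measured genes, 6.04% were at least 2-fold higher in E23 and 3.67% at least 2-fold higher in E21. The dental mesenchyme list summed to 2402 in E21 and 3461 in E23, with 8 of its 14 markers higher and 6 lower in E23 (among markers chosen after their values were seen, Col1a1 at 1.48 and Col3a1 at 1.01, but Pax9 at -1.04 and Barx1 at -1.13), and the endothelium list to 41.4 and 177, with Emcn and Esam listed at 0 in E21. The blood and immune list summed to 7.61 and 38.8, and the part of these cells was not tested. Inhba thus stood lower in SEK than in PEK and higher in E23 than in E21.

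**Figure D4:**
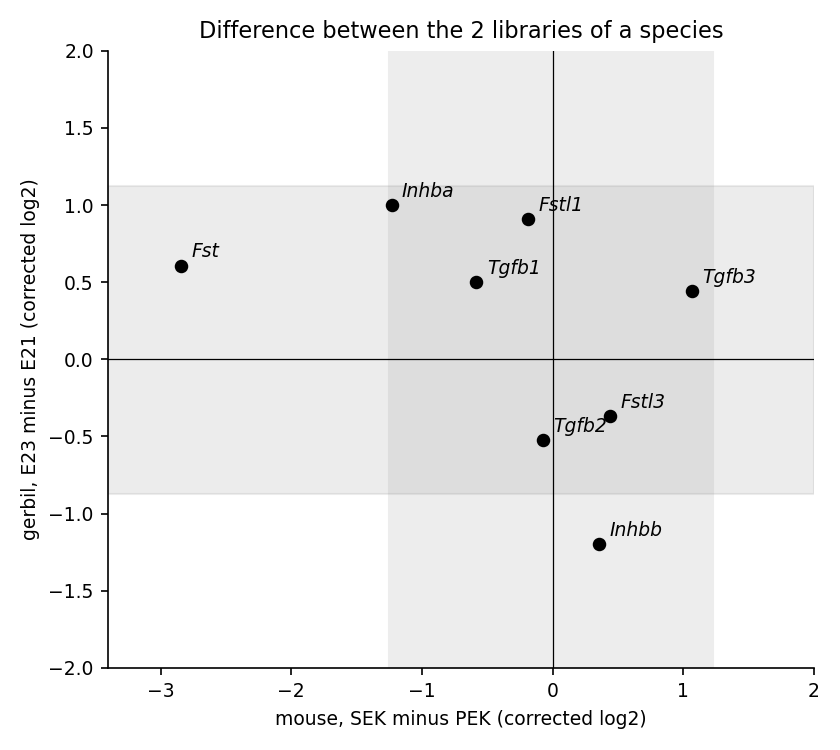
Corrected log2 difference between the 2 libraries of each species for the 8 genes, with mouse SEK minus PEK across and gerbil E23 minus E21 upward; the grey bands span the 5th to 95th percentile of all measured genes. Fst lies outside the mouse band at -2.84, and Inhbb lies outside the gerbil band at -1.20.

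Other genes of the activin and TGF-beta pathway were drawn from a list of 70 symbols, of which 44 were measured. Of these 44, 5 were called higher in gerbil and 4 higher in mouse, which is near the 13.3% and 14.7% of all measured genes, with a median difference of 0.34. These counts depend on the correction, since 11 were higher in gerbil and 4 in mouse without the length correction.

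Of the activin receptor genes, Acvr2a and Acvr2b were called in opposite directions. Acvr2a, a type II receptor gene for activins, was at levels of 6.04 and 4.66 in mouse PEK and SEK and 107 and 82.5 in gerbil E21 and E23 (difference 2.21 ± 0.22, higher in gerbil). Acvr2b, the gene of the other type II receptor, was at 111 and 78.8 in mouse and 35.9 and 17.9 in gerbil (-2.66 ± 0.47, higher in mouse). The levels of the 2 genes thus stood in opposite order in the species. Tgfbr3 encodes betaglycan, a coreceptor that presents TGF-beta 2, and was at 20.4 and 5.49 in mouse and 4.60 and 8.41 in gerbil; on plain levels the groups overlapped, and the call of higher in mouse (-2.40 ± 0.69) ended without the length correction (-1.33). The TGF-beta receptor genes proper were not called, with Tgfbr1 at 1.28 and Tgfbr2 at 0.40, but both were called for gerbil when length was not corrected (2.52 and 1.80). The levels of Tgfbr1 were 16.7 and 7.18 in mouse PEK and SEK and 100.3 and 112 in gerbil E21 and E23. In all, 1 of 8 measured receptor and coreceptor genes was higher in gerbil and 2 were higher in mouse. For all measured genes these shares were 13.3% and 14.7%. The pseudoreceptor gene Bambi, with the highest mean level among those not called, was at -0.93 ± 1.28.

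Of 9 genes of TGF-beta latency and activation, 1 was higher in gerbil and 0 in mouse, against 13.3% and 14.7% of all measured genes. That gene was Itgb8, encoding an integrin subunit that activates latent TGF-beta, at 3.45 and 1.75 in mouse PEK and SEK and 44.6 and 85.4 in gerbil E21 and E23 (2.09 ± 0.50). Itgav, the gene of its integrin partner, had the highest mean level of those not called (-0.76 ± 0.28, and 0.42 without the length correction). Of 11 genes of Smads and their regulators, 1 was higher in gerbil and 0 in mouse, against the same shares of all measured genes. Zfyve9, which encodes an anchor for receptor-activated Smads, was at 14.1 and 4.56 in mouse and 92.6 and 102 in gerbil (1.52 ± 0.40). Tgif1, a corepressor gene, was not called (-0.71 ± 0.30) but without the length correction it passed as higher in mouse (-1.38).

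Of 9 measured genes commonly induced by TGF-beta ligands, 2 were called higher in gerbil and 1 in mouse, against 13.3% and 14.7% of all genes, with a median difference of 0.39. Pmepa1, which encodes a feedback inhibitor of TGF-beta signalling, stood at 76.8 and 76.5 in mouse PEK and SEK and 31.6 and 32.9 in gerbil E21 and E23 (-2.42 ± 0.26). Tgfbi, encoding a matrix protein, was at 8.14 and 8.37 in mouse and 26.5 and 89.8 in gerbil (2.08 ± 0.91), and its call ended without the length correction (1.80). Timp1, a metalloproteinase inhibitor gene, was called higher in gerbil at 1.78 ± 0.15 although its levels were close, at 13.0 and 14.4 in mouse and 16.5 and 22.0 in gerbil, and its difference without the length correction was -0.18. Col1a1, a collagen gene that is also in the mesenchyme list, was not called (0.39 ± 1.52). Between the gerbil libraries, 5 of these 9 genes were at least 2-fold higher in E23 than in E21 and 0 were lower, with a median difference of 1.11, against 6.04% and 3.67% of all genes. The 5 were Tgfbi, Snai1, Fn1, Postn and Col1a1, genes of matrix and mesenchymal cells. The mesenchyme and endothelium sums given above were also higher in E23. Col1a1, at 257 in E21 and 694 in E23, is itself part of the mesenchyme sum. Of the 14 mesenchyme markers, 8 were higher and 6 lower in E23. The part of these cells was not tested. Of 7 other ligand and inhibitor genes, 0 were called higher in gerbil and 1 higher in mouse, Fstl4 (-2.94 ± 1.26). Its levels were 29.1 in PEK, 2.82 in SEK and 2.34 and 2.21 in gerbil E21 and E23. On the corrected scale SEK was at 2.78 and the gerbil libraries at 1.09 and 1.11. The call ended without the length correction (-2.35). Tmeff1, the highest of those not called, was at -0.93 ± 0.52.

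**Figure D5:**
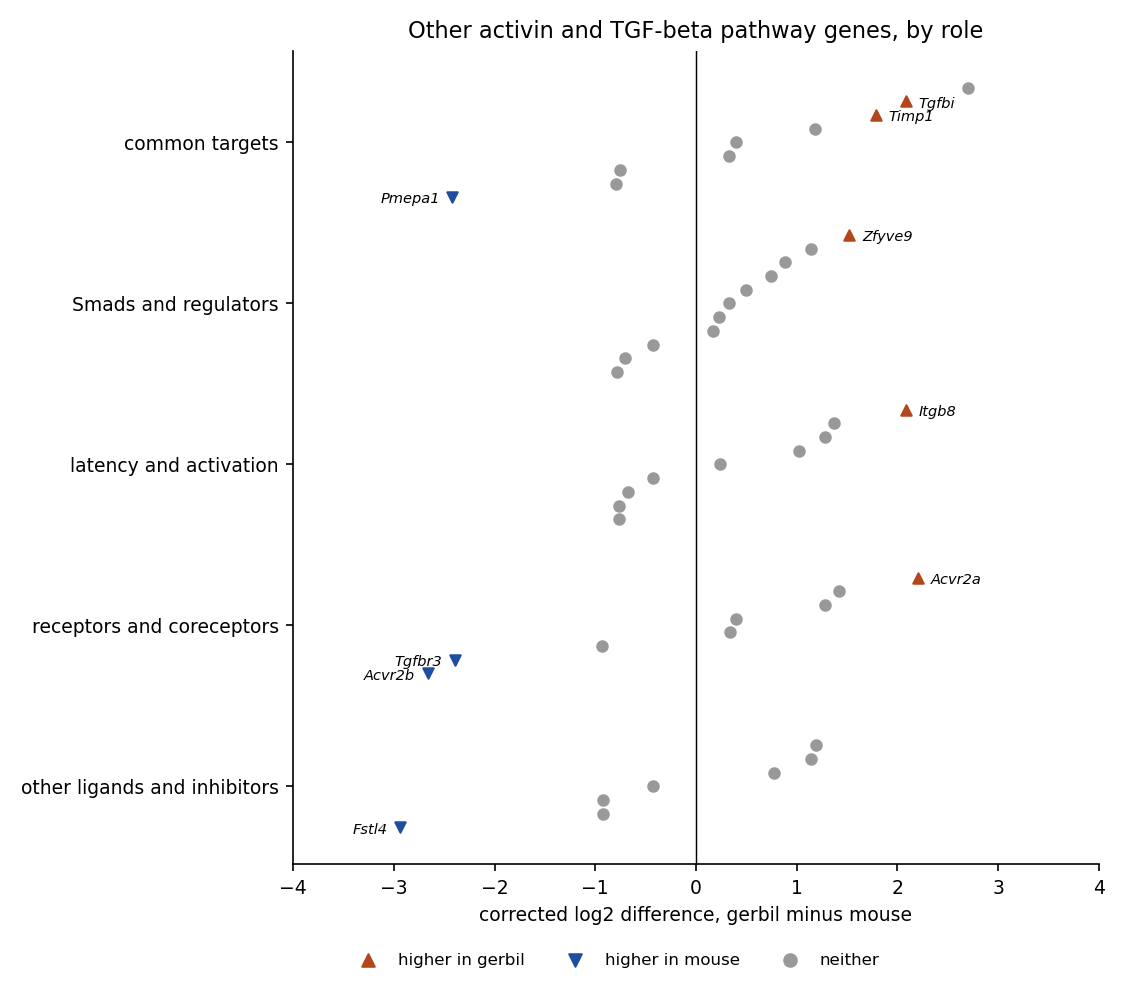
Corrected log2 difference between species, gerbil minus mouse, of the 44 measured pathway genes other than the 8, by role; triangles mark genes called higher in gerbil or, pointing down, in mouse, and vertical position within a role only separates the points. Of these, 5 were called higher in gerbil and 4 higher in mouse.

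The genes most like each called gene were found by the Euclidean distance between their corrected log2 levels, centred per gene, over the 4 libraries, among 8092 genes whose mean level reached 10. Nearest to Tgfb1 were Dusp2 (distance 0.23), B4galnt1 (0.32) and Tmem158 (0.33). Those nearest to Tgfb2 were Dnajc17 (0.11), Adora2b (0.11) and Nacc1 (0.16). For Inhba they were Egr1 (0.23), Mfng (0.32) and Jakmip2 (0.40), with the same limit on its length, and for Fstl3 they were Depdc1b (0.11), Itpr3 (0.13) and Sgsh (0.14). With 4 libraries, such a distance mainly reflects the difference between species.

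In the mouse table, Tgfb1 (ENSMUSG00000002603) spans positions 25687002 to 25705077 of chromosome 7 on the plus strand and Tgfb2 (ENSMUSG00000039239) positions 186622788 to 186705989 of chromosome 1 on the minus strand, in GRCm38. Fst (ENSMUSG00000021765) spans 114452262 to 114458949 of chromosome 13, minus strand, and Inhba (ENSMUSG00000041324) lies on the plus strand of the same chromosome. The annotated exon union had 7 merged exons for Tgfb1, 8 for Tgfb2, 6 for Fst and 5 for Inhba.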

How the data were processed

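Tools named in the submitters' processing notes, without role or order, are STAR 2.7.1a, RSEM 1.3.1 and cutadapt 2.8, and builds are GRCm38 and mm10; for gerbil no build is given in the sources used. The authors deposited FPKM for each assembled mouse locus (27632 rows) and TPM for each gerbil gene (25745 rows). Another 4 per-sample columns (gerbil) were not used here, so depth was not analysed for gerbil and is unknown for mouse, and no counting interval is given.

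Symbols occurring once in each table were matched without case, leaving out LOC, Gm and Rik names. Levels were rescaled to 1000000, given a pseudocount of 1 and filtered at a mean level of 1 over the 4 libraries. Genes without a mouse gene ID had no annotated length and were left out of the measured genes whatever their level. The median deviation in 40 bins of transcript length (exon union, GENCODE M21 basic) was subtracted per library with Python 3.11.15, numpy 2.4.6 and pandas 2.3.3. The procedure was also run on simulated data with a smooth length trend planted on the same lengths. That run cannot test the effect of wrong lengths, such as the one described for Inhba. The SE comes from the 2 libraries per species. The 8 genes, the lists and the rules were chosen with earlier results of these data known. Named pathway genes are, per role, up to 2 called genes per direction with the widest gap between nearest libraries, and the most abundant gene not called; Tgfbr1 and Tgfbr2 were added. Columns carry the species but no sample number.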

Additional observations from a re-analysis of the deposited data

How the results depend on the processing

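The calls were recomputed with another pseudocount, other filters, without the length correction or any centring, with a GC trend removed, without each library, and, chosen after seeing the data, with length counted within the mouse locus. Tgfb1 was called higher in mouse under all 10 of these that could be run for it (-4.29 to -3.26). The number of the 8 genes higher in gerbil was 1 without the length correction, with GC removed and with a minimum of 10 in each species, and ranged from 2 to 3 without 1 library. The number higher in mouse was 1 with that minimum, with neither correction nor centring and with length within the locus, and ranged from 2 to 3 without 1 library. The minimum of 10 drops Fstl3 and Tgfb3 for low levels in mouse, Tgfb1 for those in gerbil and Inhbb for both. Of the 8 genes, only Inhba, Fst, Fstl1 and Tgfb2 remain under it. Pathway genes higher in gerbil numbered 2 with the minimum of 10, 11 without the length correction and 18 with neither correction nor centring, against 5, and 7 to 12 without 1 library, where fewer libraries have to agree. Pathway genes higher in mouse numbered 2 with the minimum and 2 with neither, against 4, and 4 to 6 without 1 library. Over all genes, the minimum left 664 for gerbil and 750 for mouse, and the scale with neither gave 3021 for gerbil, against 1353 and 1490, and without 1 library they ranged from 1685 to 1967 and from 1880 to 2081. Between the gerbil libraries 1 of the 8 passed 2-fold with the minimum, with neither correction nor centring and with length within the locus. The number was 0 with GC removed or over all rows of the gerbil table, against 2 in the main setting. Rescaling over all rows lowers the gerbil levels, while the pseudocount stays at 1. Inhbb was then at -0.42 and Inhba at 0.81, and Tgfb2 stayed at -0.52. The cause was not tested. Gerbil RPKM in place of TPM was not run, and rescaling over all rows was not run for mouse, where 1 locus holds 96.7% and 97.0% of the sum. No paired analysis was possible because the columns carry no replicate number.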
